A study of Bos taurus with 3 samples.

Results

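The genes described here encode the machinery that copies DNA and makes its building blocks: the proteins that license and fire replication origins, the replicative helicase, the polymerases with their clamp and clamp loader, the factors that mature the new strand, the enzymes of deoxynucleotide synthesis, and the proteins that reassemble chromatin and copy DNA methylation behind the fork. A list of 57 such genes was taken by symbol, and 48 of them had a named probe set on the array, out of 9155 genes with one. The remaining 9 (MCM2, MCM10, GINS1, GINS2, POLE, RFC1, TOP2A, WDHD1 and TIPIN) lacked one and are not analysed here. Where several probe sets read a gene, the one with the highest mean over the 3 arrays was used. The bovine arrays came from 2 isolates of Gonadal Ridge Epithelial-Like (GREL) cells, polygonal cells grown from fetal ovaries labelled 130 days of gestation, and from 1 culture of fibroblastic cells of an adult ovary, labelled over 1 year of age. The study calls the GREL isolates clonally enriched, takes them from different fetuses, of which that of isolate 1 was slightly younger than its label says, and places the origin of the fibroblasts in the medullar stroma. Per the labels, all 3 cultures were grown in medium with 5% fetal calf serum. The labels give 70% confluence for every culture, whereas the methods state it for the fetal ones alone. Passage numbers are not given in the sources used here. Fetal against adult age, GREL against fibroblastic identity and the individual culture cannot be told apart in this design.

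In a proliferating cell the origin recognition complex marks origins, CDC6 and CDT1 load the MCM helicase onto them in G1, and CDC45 and the GINS complex turn it into the active helicase in S phase. Many genes of this machinery are transcribed in late G1 and S phase under E2F factors and are low in resting cells, while some subunits are made throughout the cycle. As the fetal ovary grows, cell division is known in several of its cell types but not at an equal pace in all. In a bulk culture fewer cells of a type and less RNA per cell cannot be told apart.

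The values are log2 of normalized probe set signals, rounded by the authors to steps of 0.1, with array medians of 3.0 and 2.9 for GREL isolates 1 and 2 and 2.9 for the fibroblasts. Over the 24016 probe sets, which are no replicates of each other, Pearson's r was 0.984 between the isolates, 0.950 between isolate 1 and the fibroblasts and 0.934 between isolate 2 and the fibroblasts. The labels were set against cell type markers. KRT19, a keratin of simple epithelia, was at 11.3 and 11.6 in the GREL isolates against 7.1 in the fibroblasts. FOXL2, a factor of ovarian supporting cells, was at 1.9 and 2.0 in the isolates against 1.8 in the fibroblasts, near the bottom of the scale on all 3 arrays. NR5A1, steroidogenic factor 1, was lower in the isolates, at 4.4 and 4.3, against 5.6 in the fibroblasts. Of the 8 measured GREL and epithelial markers 6 were higher in both isolates, against 41.6% of all genes. The 6 include FOXL2, with differences of only 0.1 and 0.2, and 2 of them were over 3-fold higher, against 2.38% of all genes. NR5A1 was lower in both, and CDH1 was at 4.7 and 3.2 in the isolates against 3.6 in the fibroblasts. All 11 stromal markers were lower in both isolates, 2 of them over 3-fold, against 33.5% and 2.38% of all genes. Their mean log2 levels were 7.27 and 6.62 in isolates 1 and 2 and 8.63 in the fibroblasts. The collagen gene COL1A2 was at 11.5 and 10.5 in the isolates, against 12.0 in the fibroblasts. The 6 granulosa markers had mean log2 levels of 4.23 and 4.1 in the isolates and 4.17 in the fibroblasts, 3 being higher in both isolates and 1 lower. Among them INHBA was at 7.3 and 6.5 in the isolates against 6.4, and FST at 8.6 and 8.8 against 9.6. Germ cell, endothelial and blood markers had mean log2 levels between 1.76 and 2.60 in the isolates and between 2.02 and 3.43 in the fibroblasts. Only 3 of the 7 listed germ cell markers were measured, POU5F1, KIT and SYCP3. The germ cell marker KIT was at 1.5 and 2.7 in the isolates against 5.7 in the fibroblasts. The log2 ratio of the 3′ to the 5′ control probe set of GAPDH, a sign of RNA quality, was 0.4 and 0.6 in the isolates against 0.3 in the fibroblasts. The files hold no detection calls. A background level, the 95th percentile of 53 genes of other organs, was 7.84 and 7.76 in the isolates against 8.22 in the fibroblasts. The median of these 53 genes was 1.8 on every array. Their 90th percentile was 6.2 and 6.0 in the isolates against 5.98 in the fibroblasts. The level is thus strict, and a value below it can still lie above most of these 53 genes. PCNA, RPA3 and DUT, 3 of the 48 genes, lay above this level in both isolates (6.25%, against 8.41% of all genes). None did in the fibroblasts (6.51% of all genes), so the sizes of most differences given here are uncertain.

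Nearly the whole machinery was higher in GREL cells. Of the 48 genes, 44 (91.7%) lay above the fibroblasts in both isolates, against 41.6% of all genes, and 3 were lower in both, against 33.5%. Over 3-fold higher in both isolates were 16 genes (33.3%), against 2.38% of all genes, and 0 were over 3-fold lower, where the share of all genes was also 2.38%. Over 2-fold higher in both were 29 (60.4%), against 5.8%. The median log2 difference, mean of the isolates minus fibroblasts, was 1.5 over the 48 genes and 0.05 over all genes. The difference exceeded the gap between the isolates in 43 of the 48, as in 64.5% of all genes. Of the 16 genes over 3-fold, only PCNA exceeded the background level in each isolate. The stromal markers moved with this result in the other direction, and their part in it was not tested.

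GREL cells were set against fibroblasts with limma over all 24016 probe sets, which has 1 residual degree of freedom, from the isolates. No member passed an adjusted p under 0.05, nor did any other probe set (0.0% in either direction). The members' adjusted p (limma) ran from 0.23 for RPA2 to 0.849 for RNASEH2A. Only RPA2 passed 0.05 before adjustment, as did 9.8% of all probe sets with the same direction. A second RPA2 probe set had differences of 0.2 and 1.0 (limma adjusted p = 0.607). The test named in the study's methods, which could be run on the 20503 probe sets whose isolates differed, called 0 members, adjusted or not. Permuting 3 arrays allows no p below 0.333, so the counts above are descriptions of these cultures. Isolate 1 set the count over 3-fold. Without it, 32 of the 48 genes were over 3-fold higher, and without isolate 2 the count stayed at 16. Over all 9155 genes the count was 218, and became 431 without isolate 1 and 263 without isolate 2.

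**Figure D1:**
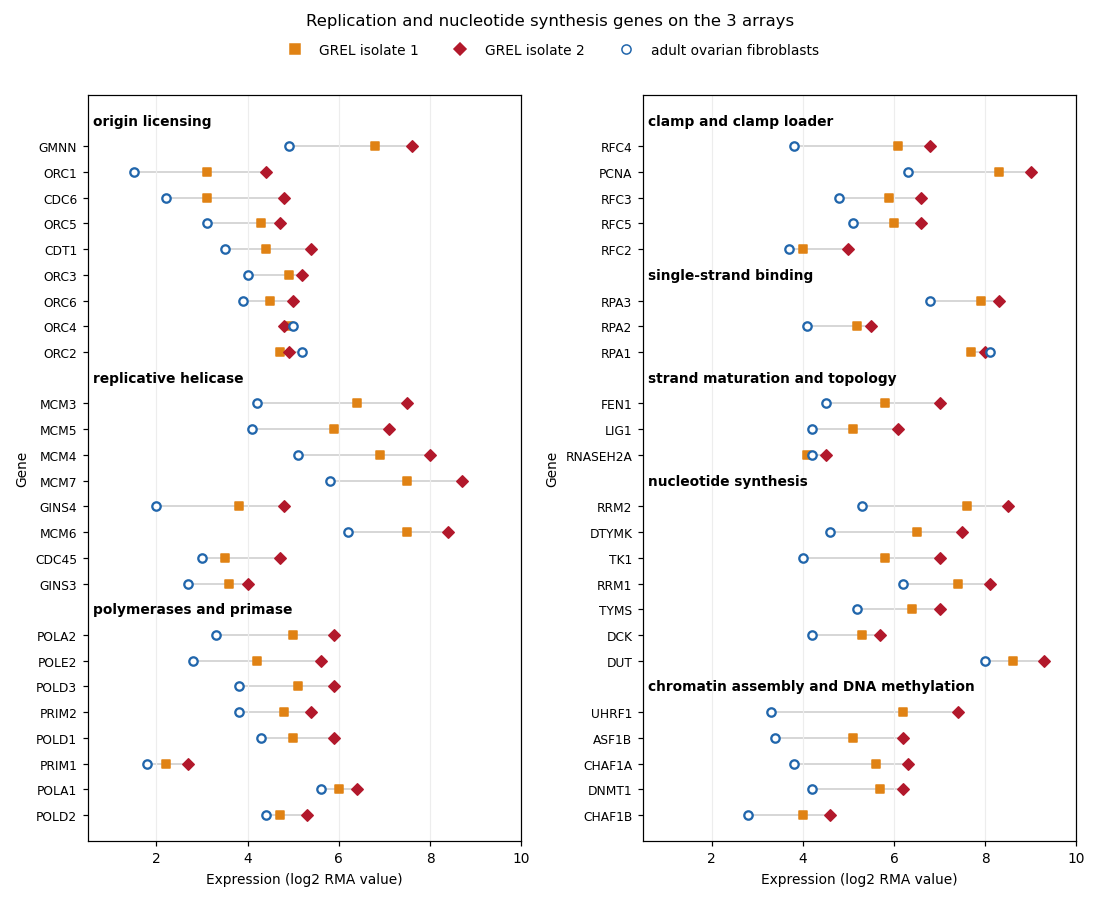
Log2 expression (horizontal axes) of the 48 measured genes, ordered within each role by their difference, on the array of GREL isolate 1 (squares), GREL isolate 2 (diamonds) and adult ovarian fibroblasts (open circles). In 44 genes the order is fibroblasts, isolate 1, isolate 2 with increasing level, and ORC2, ORC4, RPA1 and RNASEH2A are the exceptions.

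The licensing genes split within the origin recognition complex. ORC1, the subunit that in human cells is itself regulated through the cycle, was at 3.1 and 4.4 in GREL isolates 1 and 2 and at 1.5 in the fibroblasts, which is 3.03-fold and 7.46-fold. ORC5, a core subunit, was at 4.3 and 4.7 in the isolates against 3.1 in the fibroblasts. ORC3 stood at 4.9 and 5.2 in the isolates against 4.0 in the fibroblasts, and ORC6, which binds DNA beside the core complex, at 4.5 and 5.0 in the isolates against 3.9 in the fibroblasts. For these 4 subunits both isolates lay above the fibroblasts. ORC2, the partner of ORC3 in the core, went the other way, at 4.7 and 4.9 in the isolates against 5.2 in the fibroblasts (difference -0.40, standard error 0.14, limma adjusted p = 0.328). ORC4, another core subunit, was at 4.9 and 4.8 in the isolates against 5.0 in the fibroblasts, differences of -0.1 and -0.2. The 6 subunits of this complex thus ran from -0.40 to 2.25 on the log2 scale, whereas the 5 measured MCM subunits below spanned 1.75 to 2.75. Both ranges rest on the probe set of highest mean. With the mean over probe sets the difference was 0.43 for ORC5 and 1.27 for MCM3, which widens the MCM range. The split was not tested.

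Of the helicase loaders, CDC6 was at 3.1 and 4.8 in the GREL isolates and at 2.2 in the fibroblasts. Its isolates were 1.7 apart, the widest gap of the 48 genes, and its 2 folds were 1.87 and 6.06. CDT1 was at 4.4 and 5.4 in the isolates against 3.5 in the fibroblasts. Geminin (GMNN), the inhibitor that binds CDT1 and prevents a second loading, was at 6.8 and 7.6 in the isolates against 4.9 in the fibroblasts, 3.73-fold and 6.5-fold (difference 2.30, standard error 0.56, limma adjusted p = 0.286). A second probe set of CDT1 was at 2.8 and 3.4 in the isolates against 2.9 in the fibroblasts, so that isolate 1 lay below them there. Geminin and ORC1 were the 2 of 9 licensing genes over 3-fold in both isolates.

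The replicative helicase was the role with the most genes over 3-fold higher in both isolates, 5 of 8, with a median log2 difference of 2.3. MCM3 was at 6.4 and 7.5 in the GREL isolates and at 4.2 in the fibroblasts, 4.59-fold and 9.85-fold (difference 2.75, standard error 0.77, limma adjusted p = 0.286). MCM5 was at 5.9 and 7.1 in the isolates against 4.1 in the fibroblasts, 3.48-fold and 8.0-fold. MCM4 was at 6.9 and 8.0 in the isolates against 5.1 in the fibroblasts, 3.48-fold and 7.46-fold. Both belong to the same hexamer as MCM3. MCM7 was at 7.5 and 8.7 in the isolates against 5.8 in the fibroblasts, 3.25-fold and 7.46-fold. MCM6 was at 7.5 and 8.4 in the isolates against 6.2 in the fibroblasts, so isolate 1 missed the 3-fold mark, at 2.46-fold. These 5 subunits of the MCM ring, which unwinds the duplex, were 0.9 to 1.2 higher in isolate 2 than in isolate 1.

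The activators of the ring were less even. GINS4 was at 3.8 and 4.8 in the GREL isolates and at 2.0 in the fibroblasts, 3.48-fold and 6.96-fold. Its partner in the GINS complex, GINS3, was at 3.6 and 4.0 in the isolates against 2.7 in the fibroblasts. CDC45, which completes the active helicase, was at 3.5 and 4.7 in the isolates against 3.0 in the fibroblasts. The difference of CDC45, 1.10 (standard error 0.84, limma adjusted p = 0.536), was smaller than the gap of 1.2 between its isolates.

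All 8 polymerase and primase genes were higher in both isolates. POLA2, the B subunit of polymerase alpha, was at 5.0 and 5.9 in the GREL isolates and at 3.3 in the fibroblasts, 3.25-fold and 6.06-fold, and was the only 1 of the 8 over 3-fold in both. A second POLA2 probe set had a difference of 0.45. POLE2, the second subunit of polymerase epsilon, was at 4.2 and 5.6 in the isolates against 2.8 in the fibroblasts, with isolates 1.4 apart. POLD3, an accessory subunit of polymerase delta, was at 5.1 and 5.9 in the isolates against 3.8 in the fibroblasts. The catalytic subunit of polymerase alpha, POLA1, was at 6.0 and 6.4 in the isolates against 5.6 in the fibroblasts. That of polymerase delta, POLD1, was at 5.0 and 5.9 in the isolates against 4.3 in the fibroblasts. The small subunit POLD2 was at 4.7 and 5.3 in the isolates against 4.4 in the fibroblasts. POLD2 had a difference of 0.60 (standard error 0.42, limma adjusted p = 0.502), as large as the gap between its isolates. The primase that makes RNA primers was at 4.8 and 5.4 in the isolates against 3.8 in the fibroblasts for its large subunit, PRIM2. PRIM1, the catalytic subunit, was read at 2.2 and 2.7 in the isolates against 1.8 in the fibroblasts. Differences between subunits of an enzyme were not tested.

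PCNA, the ring that holds polymerases on DNA, was at 8.3 and 9.0 in the GREL isolates and at 6.3 in the fibroblasts, 4.0-fold and 6.5-fold (difference 2.35, standard error 0.49, limma adjusted p = 0.261). RFC4, a small subunit of the clamp loader, was at 6.1 and 6.8 in the isolates against 3.8 in the fibroblasts, 4.92-fold and 8.0-fold (difference 2.65, standard error 0.49, limma adjusted p = 0.251). The other loader subunits differed less. RFC3 was at 5.9 and 6.6 in the isolates against 4.8 in the fibroblasts. RFC5 was at 6.0 and 6.6 in the isolates against 5.1 in the fibroblasts. RFC2 was at 4.0 and 5.0 in the isolates against 3.7 in the fibroblasts, so that its difference of 0.80 was below its isolate gap of 1.0. The 4 subunits of this pentameric loader spanned 0.80 to 2.65 on the log2 scale.

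The trimer RPA, which coats single-stranded DNA, also split. RPA2, the middle subunit, was at 5.2 and 5.5 in the GREL isolates and at 4.1 in the fibroblasts. Its second probe set was at 4.5 and 5.3 in the isolates against 4.3 in the fibroblasts. RPA3, the smallest subunit, was at 7.9 and 8.3 in the isolates against 6.8 in the fibroblasts. RPA1, the large DNA-binding subunit, was at 7.7 and 8.0 in the isolates against 8.1 in the fibroblasts (difference -0.25, standard error 0.21, limma adjusted p = 0.566). Of the genes that mature the lagging strand, the flap endonuclease FEN1 was at 5.8 and 7.0 in the isolates against 4.5 in the fibroblasts. The ligase LIG1 was at 5.1 and 6.1 in the isolates against 4.2 in the fibroblasts. RNASEH2A, the catalytic subunit of a ribonuclease that removes RNA from DNA, was at 4.1 and 4.5 in the isolates against 4.2 in the fibroblasts, the only gene of the 48 whose isolates lay on either side of the fibroblasts. None of these 6 genes was over 3-fold higher in both isolates.

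All 7 genes of deoxynucleotide supply were higher in both GREL isolates, 3 of them over 3-fold. RRM2, the subunit of ribonucleotide reductase that is limiting in S phase, was at 7.6 and 8.5 in the isolates against 5.3 in the fibroblasts, 4.92-fold and 9.19-fold (difference 2.75, standard error 0.63, limma adjusted p = 0.28). Its partner RRM1 was at 7.4 and 8.1 in the isolates against 6.2 in the fibroblasts, 2.30-fold and 3.73-fold. Both steps that phosphorylate thymidine to its diphosphate were among the 3. Thymidine kinase (TK1) was at 5.8 and 7.0 in the isolates against 4.0 in the fibroblasts, 3.48-fold and 8.0-fold. Thymidylate kinase (DTYMK) was at 6.5 and 7.5 in the isolates against 4.6 in the fibroblasts, 3.73-fold and 7.46-fold. Thymidylate synthase (TYMS), which makes dTMP from dUMP, was at 6.4 and 7.0 in the isolates against 5.2 in the fibroblasts. Deoxycytidine kinase (DCK), a salvage enzyme, was at 5.3 and 5.7 in the isolates against 4.2 in the fibroblasts. DUT, the dUTPase that keeps uracil out of DNA, had the smallest difference of the 7, 0.95 (standard error 0.49, limma adjusted p = 0.405), at 8.6 and 9.3 in the isolates against 8.0 in the fibroblasts.

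UHRF1 had the largest difference of the 48 genes. This protein binds hemimethylated DNA at the fork and recruits DNMT1. It was at 6.2 and 7.4 in the GREL isolates and at 3.3 in the fibroblasts, 7.46-fold and 17.1-fold, a difference of 3.50 (standard error 0.84, limma adjusted p = 0.286). By the isolate with the smaller difference it ranked 21 among 9155 genes. DNMT1, the maintenance methyltransferase, was at 5.7 and 6.2 in the isolates against 4.2 in the fibroblasts and fell just short of the 3-fold mark in isolate 1, at 2.83-fold. CHAF1A, the large subunit of the histone chaperone CAF-1, was at 5.6 and 6.3 in the isolates against 3.8 in the fibroblasts, 3.48-fold and 5.66-fold. The smaller CHAF1B was at 4.0 and 4.6 in the isolates against 2.8 in the fibroblasts. ASF1B, which hands new histones H3 and H4 to CAF-1, was at 5.1 and 6.2 in the isolates against 3.4 in the fibroblasts, 3.25-fold and 6.96-fold. UHRF1, CHAF1A and ASF1B, 3 of the 5 chromatin genes, were over 3-fold in both isolates.

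**Figure D2:**
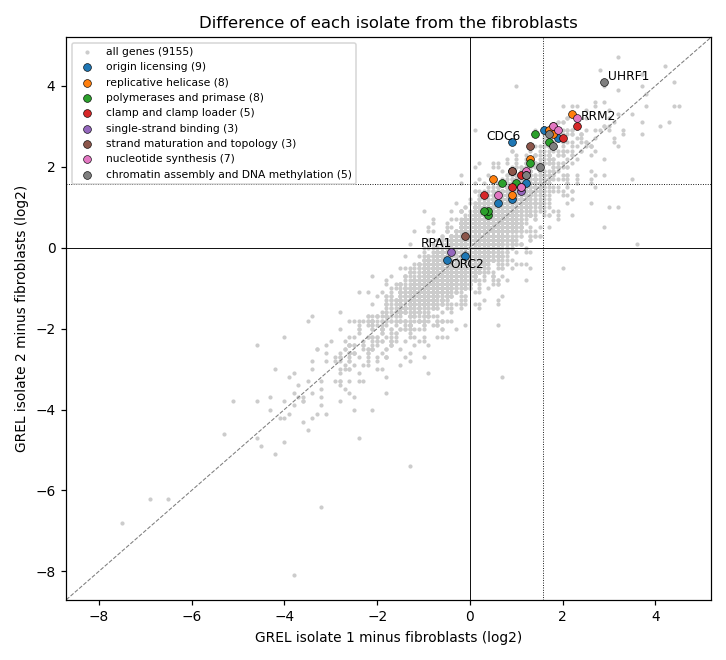
Log2 difference from the fibroblasts of GREL isolate 1 (horizontal axis) and GREL isolate 2 (vertical axis) for all 9155 genes (grey) and the 48 genes coloured by role, with the number of genes in brackets. Dotted lines mark 3-fold and the dashed line equal differences, both axes share the fibroblast array, and 47 of the 48 genes lie above the dashed line.

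The isolates themselves differed in the same set of genes. In 47 of the 48 (97.9%) isolate 2 was higher than isolate 1, against 51.4% of all genes, and ORC4 was the exception, at 4.8 in isolate 2 and 4.9 in isolate 1 (34.7% of all genes were lower in isolate 2). The median difference, isolate 2 minus isolate 1, was 0.7 for the 48 genes and 0.1 for all genes. In 17 of the 48 (35.4%) isolate 2 was higher by 1 log2 unit or more, as in 1.38% of all genes. The order fibroblasts, isolate 1, isolate 2 held with increasing level in 44 of the 48 (91.7%), against 24.8% of all genes. With 1 array per isolate this difference has no replicate check.

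By role, the median gap was largest for the helicase, 1.1, followed by FEN1, LIG1 and RNASEH2A with 1.0. It was 0.7 for polymerases, clamp and loader, deoxynucleotide supply and chromatin genes, 0.5 for licensing and 0.3 for RPA. The largest single gaps after CDC6 were those of POLE2 (1.4) and ORC1 (1.3), and MCM5, MCM7, CDC45, FEN1, TK1 and UHRF1 each had 1.2. The 4 genes not higher in both isolates had gaps of 0.2 (ORC2), -0.1 (ORC4), 0.3 (RPA1) and 0.4 (RNASEH2A). Stromal markers ran against this order: 9 of 11 were lower in isolate 2 than in isolate 1, with a median gap of -0.6. Their part in the gap between the isolates was not tested. The GREL and epithelial markers had a median gap of 0.0. The array median of isolate 1 was 0.1 higher, and after centring the arrays on their medians 47 of the 48 genes (97.9%) were higher in isolate 2, as were 65.3% of all genes.

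**Figure D3:**
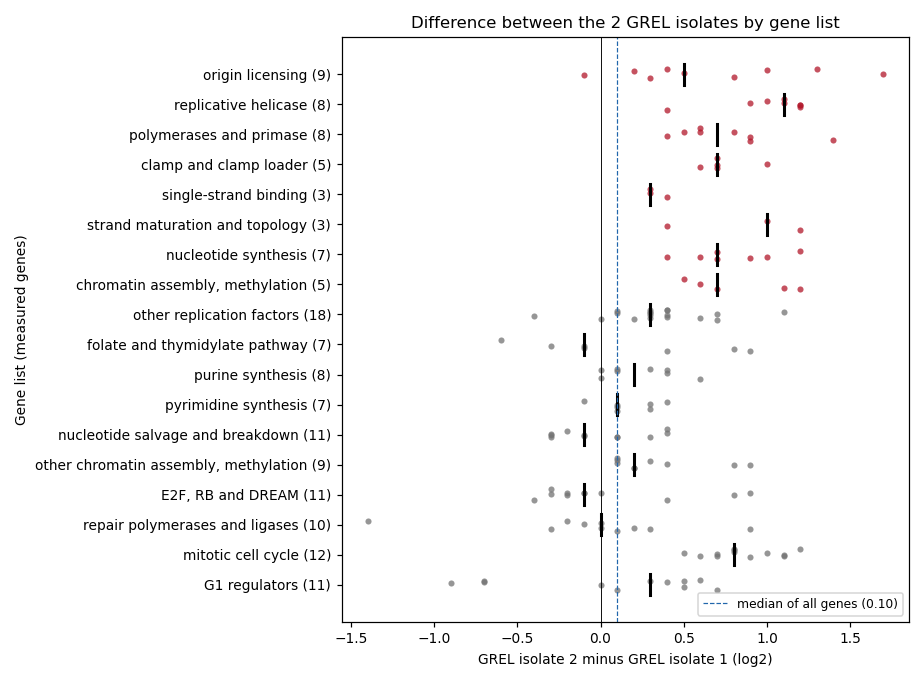
Log2 difference between the GREL isolates, isolate 2 minus isolate 1 (horizontal axis), where each point is a measured gene of the 8 measured roles (red) and 10 further lists (grey), with list medians as bars. The helicase has a median of 1.1 and the mitotic genes of 0.8, while purine and pyrimidine synthesis have 0.2 and 0.1.

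Of the 48 genes 18 were read by several probe sets, with 21 probe sets beside those used. Of the 21, 16 were higher in both isolates, as were 33.5% of all probe sets, and 17 were higher in isolate 2 than in isolate 1, as were 46.4%. Their median difference was 0.45, against 1.4 for the probe sets used of the same genes. A second probe set of UHRF1 gave 5.2 and 6.7 in the GREL isolates against 2.4 in the fibroblasts, a difference of 3.55 beside 3.50. That of MCM6 gave 5.4 and 5.5 in the isolates against 3.8 in the fibroblasts. These 2 were the other probe sets over 3-fold in both isolates, as were 1.58% of all probe sets. CDC6 (1.65 beside 1.75) and ASF1B (1.65 beside 2.25) had differences above 1.5 in both readings. MCM3 differed between its readings, since the other probe set was at 0.9 and 1.5 in the isolates against 1.4 in the fibroblasts, near the bottom of the scale. Another probe set of ORC5 was at 0.9 and 1.3 in the isolates against 1.6 in the fibroblasts, and the differences given for MCM3 and ORC5 rest on 1 probe set each. With the mean over probe sets in place of the one of highest mean, the difference became 1.27 for MCM3, 0.43 for ORC5, 0.80 for CDT1, 1.30 for POLA2, 0.80 for POLD3, 0.78 for RFC5 and 0.88 for TYMS. For ORC2 both probe sets were lower in both isolates, at -0.40 and -0.30. LIG1 had 1 other probe set with a larger difference, 2.00, at 4.3 and 5.7 in the isolates against 3.0 in the fibroblasts. Another LIG1 probe set, with a difference of 0.45, was at 2.1 and 2.4 in the isolates against 1.8 in the fibroblasts. DUT was read alike by its other probe set, at 8.4 and 9.2 in the isolates against 8.1 in the fibroblasts.

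**Figure D4:**
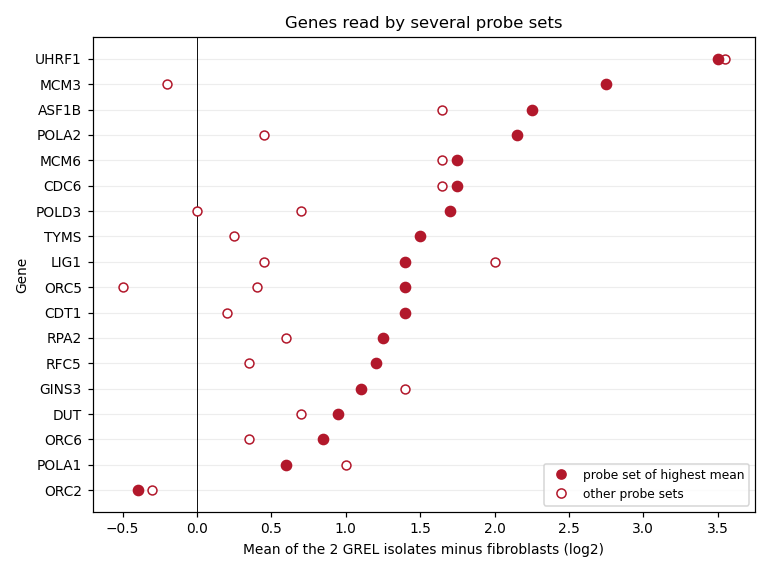
Log2 difference, mean of the 2 GREL isolates minus fibroblasts (horizontal axis), for every probe set of the 18 genes read by several, with those of highest mean, used in the text, filled and the others open. UHRF1 reads 3.50 and 3.55, and MCM3 reads 2.75 and -0.20.

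Further genes of the pathway were taken from lists fixed by function, though with earlier results of these data known. None of them passed limma over all probe sets. Of all genes 41.6% were higher in both isolates, 33.5% were lower and 2.38% were over 3-fold higher. Of 18 other replication factors 13 were higher in both isolates and 1 was lower, with 2 over 3-fold higher. These were PCLAF, a PCNA-binding factor, at 7.3 and 8.0 in the GREL isolates and 5.2 in the fibroblasts, and CHTF18, of an alternative clamp loader, at 5.2 and 6.3 in the isolates against 3.2 in the fibroblasts. POLD4, the smallest subunit of polymerase delta, was lower, at 4.5 and 4.7 in the isolates against 5.4 in the fibroblasts. RNASEH2B, a partner of RNASEH2A, was at 5.5 and 5.9 in the isolates against 4.2 in the fibroblasts. RNASEH2C, the other partner, was at 7.1 and 7.7 in the isolates against 5.8 in the fibroblasts. MCMBP, which binds MCM proteins, was at 4.9 in both isolates and 3.6 in the fibroblasts. These last 3 genes were named after their values were seen.

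The pathways that feed deoxynucleotide synthesis had median differences below that of the 48 genes. All 7 genes of pyrimidine synthesis and 7 of 8 of purine synthesis were higher in both isolates, against 41.6% of all genes. Their medians were 0.85 and 0.9, and 0 were over 3-fold higher, against 2.38% of all genes. Their median gaps between isolates were 0.1 and 0.2. The purine enzyme ADSL was at 7.6 and 8.0 in the GREL isolates and 6.1 in the fibroblasts. PAICS, of the same pathway, was at 8.8 and 9.1 in the isolates against 7.4 in the fibroblasts. IMPDH1, which directs purines to guanine nucleotides, was at 4.0 and 4.1 in the isolates against 4.0 in the fibroblasts. CAD, which starts pyrimidine synthesis, was at 5.3 and 5.7 in the isolates against 4.5 in the fibroblasts. The uridine-cytidine kinase UCK2 was at 7.4 and 7.5 in the isolates against 6.0 in the fibroblasts. DHODH, the mitochondrial step of the pathway, was at 3.3 and 3.6 in the isolates against 3.0 in the fibroblasts. Of 7 genes of the folate pathway 6 were higher in both, led by MTHFD1, at 6.3 and 7.2 in the isolates against 5.0 in the fibroblasts. Its mitochondrial relative MTHFD1L was at 6.9 and 6.8 in the isolates against 6.1 in the fibroblasts. FPGS, which adds glutamates to folates, was at 3.0 and 3.4 in the isolates against 3.1 in the fibroblasts.

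A further list of salvage and breakdown enzymes showed the opposite balance. Of its 11 genes 7 were lower in both isolates, against 33.5% of all genes, and 2 were higher, against 41.6%. The median was -0.45, and 3 were over 3-fold lower. APRT and ADA were neither higher nor lower in both isolates. The list leaves out the salvage enzyme DCK and the thymidine kinase TK1, counted above with deoxynucleotide supply. These were higher in both isolates, with differences of 1.3 for DCK and 2.4 for TK1. The balance thus holds for this list and not for all salvage enzymes. NT5E, the surface enzyme that turns AMP into adenosine, was at 3.0 and 2.7 in the GREL isolates and 5.8 in the fibroblasts. DPYD, which breaks down uracil and thymine, was at 3.5 and 3.2 in the isolates against 5.5 in the fibroblasts. The adenylate kinase AK1 was at 4.6 and 4.5 in the isolates against 6.5 in the fibroblasts. DPYD and AK1 were named after their values were seen. HPRT1, of purine salvage, was at 8.1 and 8.5 in the isolates against 7.8 in the fibroblasts. NME2, a nucleoside diphosphate kinase, was at 10.4 and 10.1 in the isolates against 9.8 in the fibroblasts.

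Of 9 other genes of chromatin assembly and DNA methylation 8 were higher in both isolates, against 41.6% of all genes. Their median difference was 0.85. The histone chaperone NASP was at 7.0 and 7.9 in the GREL isolates and 5.6 in the fibroblasts. Of the de novo methyltransferases, DNMT3A was at 5.2 and 5.5 in the isolates against 4.1 in the fibroblasts. DNMT3B was at 1.3 and 1.5 in the isolates against 1.5 in the fibroblasts. Of 12 mitotic genes all were higher in both isolates and 9 were over 3-fold higher, with a median of 2.42. The shares of all genes were 41.6% and 2.38%. CCNB1, cyclin B1, was at 6.5 and 7.3 in the isolates against 3.8 in the fibroblasts. BUB1, a checkpoint kinase, was at 6.2 and 6.9 in the isolates against 3.7 in the fibroblasts. The lowest differences of the list were those of AURKB and PLK1, mitotic kinases. AURKB was at 5.8 and 6.6 in the isolates against 4.8 in the fibroblasts. All 12 mitotic genes were also higher in isolate 2 than in isolate 1, against 51.4% of all genes.

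**Figure D5:**
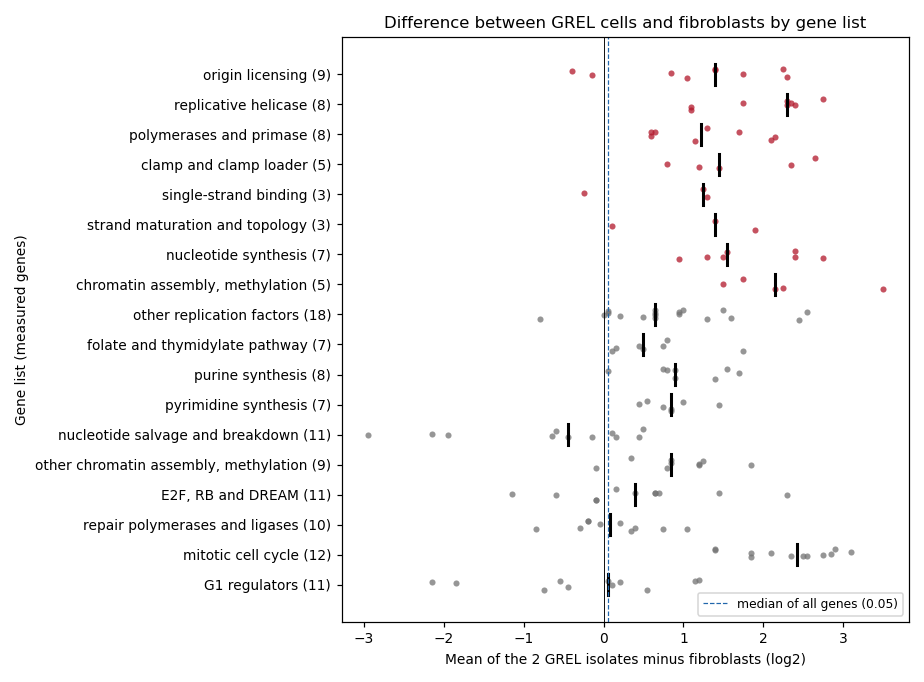
Log2 difference, mean of the 2 GREL isolates minus fibroblasts (horizontal axis), where each point is a measured gene of the 8 measured roles (red) and 10 further lists (grey), with list medians as bars. Medians run from 1.23 for polymerases to 2.3 for the helicase among the roles, and reach 2.42 for mitotic genes and -0.45 for salvage and breakdown.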

How the data were processed

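RNA of 3 cultures was hybridized to GeneChip Bovine Genome Arrays, 1 array each. The values deposited by the authors are log2 signals from RMA in Partek (6.5, per the submitters' processing notes), with background subtraction, then quantile normalization, and rounded to steps of 0.1, without detection calls. The 112 array controls among the 24128 probe sets were not used. Platform annotation gave 1 symbol for 13292 probe sets, several for 86 and none for 10638. Coordinates and sequences are not given, since no genome build or sequence is named in the sources used here, and a planned search of promoters for motifs was not run. Groups came from the sample labels, and each of the 3 value columns carries its sample's name.

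The limma fit (version 3.58.1 in R 4.3.3, lmFit and eBayes, Benjamini-Hochberg adjustment over 24016 probe sets) took the spread from the GREL isolates alone and was tested on simulated data. In 3513 probe sets the rounded isolates are identical. Differences past 3-fold (1.58 on the log2 scale) were counted where both isolates exceeded it. Counts were made in Python 3.11.15 with pandas 2.3.3. The members, gene lists and tests were chosen with earlier results of these data known. Roles and lists were fixed by function. The text names every measured member and, of each further list, up to 2 genes with the highest and 1 with the lowest difference by the smaller isolate, unless stated. Alternatives were other probe set rules, normalizations, fold thresholds, priors, a filter on dim probe sets, spreading of rounded values and leaving out either isolate. The isolates came from different fetuses, so p-values measure only the spread between these 2 cultures, and the fibroblast array is assumed to vary like them. The number of arrays limits the precision.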

Additional observations from a re-analysis of the deposited data

How the results depend on the processing

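No member passed an adjusted p under 0.05 in limma or in 6 alternatives to it, the methods' test included. With random spreading inside the rounding step 0 passed in 12 of 20 draws, 1 in 7 draws and 7 in 1 draw. Before adjustment a median of 37 of the 48 members passed with spreading, against 1 without it. Of all 24016 probe sets, medians of 2928 higher and 2363 lower passed before adjustment with spreading, against 2354 and 2666 without it. After adjustment a robust prior called 1189 of all probe sets (571 higher, 618 lower). Spreading values within the rounding step called a median of 522.5 over 20 draws (220.5 higher, 302 lower), and the other 5 called 0. No test was possible without either isolate, since no residual degree of freedom remains. Leaving out either isolate gave 16 to 32 members over 3-fold higher, 44 to 45 members higher at all and medians of 1.2 to 1.9. It gave 263 to 431 genes over 3-fold higher and 251 to 331 lower. At 2-fold the counts were 29 members, 531 genes higher and 438 lower, and at 5-fold 1 member (UHRF1), 55 genes higher and 92 lower. Among the 1085 genes above the background level on at least 1 array they were 4 of 9 members, 35 genes higher and 50 lower, fewer genes being counted. Of these 9 members 8 were higher at all, for which the share of the 1085 genes was not computed. All 9 passed this filter only through a GREL array, since no member lay above the level in the fibroblasts. The filter thus favours members that are high in GREL cells, so these member counts were tilted in advance. With the 90th percentile as background level 13 members (27.1%) lay above it in both isolates, against 3, as did 24.4% of all genes. The other probe set rules, quantile normalization applied again and centred arrays gave 13 to 16 members over 3-fold, 40 to 44 higher at all and 44 to 47 higher in isolate 2. The mean over probe sets moved ORC5 to 0.43, CDT1 to 0.80, MCM3 to 1.27, POLA2 to 1.30, POLD3 to 0.80, RFC5 to 0.78, RPA2 to 0.92 and TYMS to 0.88. RNASEH2A alone changed sign, without isolate 2. No paired analysis was possible because the fibroblasts have 1 array. Probe sets near the bottom of the scale limit the sizes of differences.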

Other observations

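Regulators of entry into S phase included genes higher and genes lower in the isolates. Of all genes 41.6% were higher in both isolates and 33.5% were lower. Of 11 measured genes of the E2F, RB and DREAM proteins, which control transcription of replication genes, 6 were higher in both GREL isolates than in the fibroblasts and 2 were lower, with a median log2 difference of 0.4. MYBL2, an activator of late cell cycle genes, was at 5.5 and 6.3 in GREL isolates 1 and 2 and at 3.6 in the fibroblasts. E2F6, a repressor of the E2F family, was at 4.7 and 4.6 in the isolates against 3.2 in the fibroblasts. E2F1 was at 2.1 and 3.0 in the isolates against 1.9 in the fibroblasts, a difference of 0.65 below the gap of 0.9 between its isolates, and was named after its values were seen. RB1, the retinoblastoma protein that restrains E2F factors, was at 5.1 and 4.8 in the isolates and 6.1 in the fibroblasts.

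Of 11 G1 regulators 4 were higher in both isolates and 5 were lower, against 41.6% and 33.5% of all genes. Their median difference was 0.05, as over all genes. CCNE2, cyclin E2, was at 3.9 and 4.4 in the isolates and 3.0 in the fibroblasts, and the kinase CDK2 at 5.2 and 5.8 in the isolates against 4.3 in the fibroblasts. CCND2, cyclin D2, was at 5.9 and 5.2 in the isolates against 7.7 in the fibroblasts. CDKN1A, the inhibitor p21, was at 7.2 and 6.3 in the isolates and 8.6 in the fibroblasts, in the reverse order of the replication genes, and was named after its values were seen. Of 10 repair polymerases and ligases 5 were higher in both isolates and 3 were lower, again beside 41.6% and 33.5%. Their median difference was 0.08. POLH, a polymerase that copies past damage, was at 4.3 and 5.2 in the isolates against 3.7 in the fibroblasts. POLL, a repair polymerase, was at 2.7 and 3.0 in the isolates against 2.1 in the fibroblasts. POLK, of the same family as POLH, was at 4.8 and 4.5 in the isolates against 5.5 in the fibroblasts. None of these genes passed limma over all probe sets.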
